A study of Mus musculus with 2 samples.

Results

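Intermediate mesoderm is the strip of mesoderm between the somites and the lateral plate that gives rise to the nephric duct, the kidney and part of the gonad. The 8 genes described here, Osr1, Wt1, Pax2, Pax8, Lhx1, Gata3, Emx2 and Eya1, encode transcription regulators known for their part in this tissue and in early kidney development. They were chosen by name, with earlier results of these data known, and all 8 were found among the 24340 genes of the deposited RNA-seq table. The table compares trunk tissue of E8.5 mouse embryos of 2 genotypes, wild type and Aldh1a2-/-, with 1 sample of each. Aldh1a2-/- embryos carry a germline knockout of Aldh1a2 (also called Raldh2), so every tissue of the embryo lacks the enzyme and an effect in intermediate mesoderm cannot be told apart from one that began in a neighboring tissue. The trunks were dissected free of head, pharyngeal region, anterior hindbrain, heart and the tissue caudal to the newest somite. The study's methods describe 2 trunks per genotype, and how these were combined into the 1 sample per genotype of the labels is not stated.

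Intermediate mesoderm forms as a small part of the trunk, and Osr1 is among the first genes to mark it, together with the adjacent lateral plate. Pax2 and Pax8 act redundantly to specify the nephric lineage, Lhx1 is needed for the duct to form and extend, and Gata3 acts downstream of Pax2 and Pax8 to maintain the receptor gene Ret in the duct. Wt1, Eya1 and Osr1 are required in the mesenchyme that the ureteric bud later invades, and Emx2 is required in the duct epithelium and bud. Aldh1a2 makes retinoic acid (RA), a ligand of nuclear receptors, in paraxial and lateral mesoderm.

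Values are FPKM, fragment numbers scaled to transcript length and to library size, so that levels of different genes can be set side by side. Where a pair of values is given, that of wild type comes first. The values of all genes summed to 846496 FPKM in wild-type trunk and 759577 FPKM in Aldh1a2-/- trunk. The table holds no counts, but the lowest values fall on steps that gave a depth of about 28100000 fragments for wild type and 29100000 for Aldh1a2-/-. The approximate fragments and 95% exact Poisson intervals below rest on these depths and cover counting error only, not the difference between embryos. Since each genotype had 1 sample, there was no test, and whether a difference exceeds the spread between embryos cannot be known from these data. As a check of the labels, the mRNA of Aldh1a2 itself had a log2 ratio of -3.45, with 128 FPKM in wild-type trunk against 11.7 FPKM in Aldh1a2-/- trunk. The low level that remained is listed for the whole gene, and the deleted part was not examined separately.

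A few stretches of sequence are shown because they lie just upstream of members whose values differ in kind. The first is the space between the annotated starts of Lhx1 and of the divergent noncoding gene Lhx1os, both of which were listed at 0 in Aldh1a2-/-. The others are the 250 bases upstream of Pax8, which was lower in the mutant sample but just inside the cutoff, and of Gata3, which was the member with the higher value there among those above 0 in both samples. All are RefSeq sequence of GRCm38.p6, read 5′ to 3′ on the minus strand that these 3 genes use. Capitals mark the letters of the CCAAT box (CCAAT, or ATTGG where it lies on the other strand) and of the GC box (GGGCGG, or CCGCCC where it lies on the other strand).
Lhx1 to Lhx1os, chr11:84525536-84525659: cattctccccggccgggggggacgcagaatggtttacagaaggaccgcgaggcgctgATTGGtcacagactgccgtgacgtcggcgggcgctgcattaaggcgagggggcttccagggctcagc
Pax8, chr2:24475600-24475849: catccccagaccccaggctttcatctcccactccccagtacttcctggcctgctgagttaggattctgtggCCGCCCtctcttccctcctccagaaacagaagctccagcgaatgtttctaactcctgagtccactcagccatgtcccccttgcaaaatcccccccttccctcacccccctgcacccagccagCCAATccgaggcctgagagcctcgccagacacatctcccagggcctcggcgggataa
Gata3, chr2:9878601-9878850: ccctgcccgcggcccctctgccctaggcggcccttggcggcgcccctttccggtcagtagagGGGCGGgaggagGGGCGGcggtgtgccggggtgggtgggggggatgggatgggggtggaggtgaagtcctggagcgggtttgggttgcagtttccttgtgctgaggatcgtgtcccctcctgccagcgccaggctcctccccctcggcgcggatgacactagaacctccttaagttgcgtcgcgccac
The Lhx1 stretch holds the 124 bases between the first bases that GENCODE annotates for the transcripts of Lhx1 (84525535, 1 base beyond the end of the gene in the table) and of Lhx1os (84525660) on opposite strands, and it held 1 CCAAT match. The Pax8 stretch held 1 match to each motif and the Gata3 stretch 2 matches to GGGCGG, and an exon of the noncoding gene Gm13256 lies on the other strand within the Gata3 stretch.

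Of the 8 members, 5 were above 0.5 FPKM in both samples, the floor used in the study, and are called measured. All 5 had less mRNA in Aldh1a2-/-, with log2 ratios of Aldh1a2-/- over wild type from -2.66 to -0.73 and a median of -0.97. Pax2, Emx2 and Osr1 lay below the study's cutoff of -0.85, whereas 0 members lay above 0.85. Over all 9506 measured genes, 22.0% lay below -0.85, 23.6% lay above 0.85, 45.6% lay past either cutoff and 49.2% had a ratio under 0, with a median of 0.02 and quartiles at -0.71 and 0.79. Among the 4319 genes whose mean level lay within the range of the measured members, 29.7% were below -0.85 and 28.1% above 0.85. The members' 3 of 5 stands beside these shares as a description of 5 genes. The other 3 members had no ratio under this rule. Lhx1 was listed at 0 in Aldh1a2-/-, Wt1 was listed at 0 in wild type, and Gata3 was under the floor in wild type. Because trunk was sequenced in bulk, fewer cells of a type and less RNA per cell cannot be told apart for any of them.

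**Figure D1:**
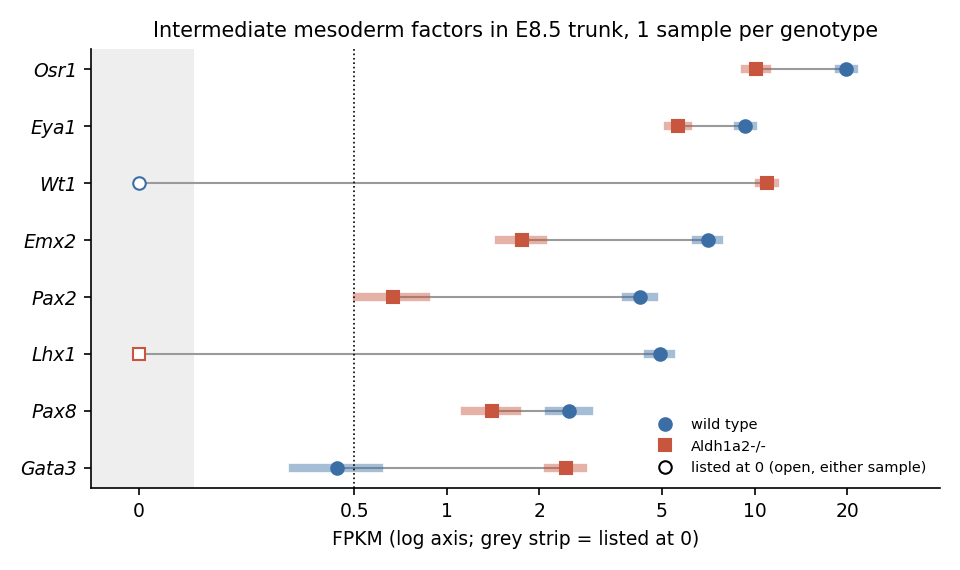
FPKM of the 8 members (log axis) in the wild-type (circles) and Aldh1a2-/- (squares) samples, with shaded bars for the 95% counting interval, open symbols for values listed at 0 and a dotted line at the 0.5 FPKM floor. The circle lies to the right of the square for 6 members, and to its left for Wt1 and Gata3.

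In wild-type trunk the order of levels was Osr1, Eya1, Emx2, Lhx1, Pax2, Pax8, Gata3 and Wt1. The counting intervals of neighbors in this order overlapped only for Lhx1 (4.50 to 5.35 FPKM) and Pax2 (3.82 to 4.70 FPKM). In Aldh1a2-/- trunk the order was Wt1, Osr1, Eya1, Gata3, Emx2, Pax8, Pax2 and Lhx1. Here the intervals overlapped for Wt1 (10.3 to 11.7 FPKM) and Osr1 (9.34 to 11.0 FPKM), and for Emx2 (1.48 to 2.05 FPKM) and Pax8 (1.14 to 1.69 FPKM). The members summed to 48.4 FPKM in wild-type trunk and 33.0 FPKM in Aldh1a2-/- trunk, and Wt1 supplied 33.2% of the mutant sum. Without Wt1 the mutant sum was 22.0 FPKM.

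Osr1 (chr12:9574442-9581500 of mm10) encodes an odd-skipped zinc finger protein and was the most abundant member in wild type. It was at 19.9 FPKM in wild-type trunk and 10.1 FPKM in Aldh1a2-/- trunk, from about 1125 and 593 fragments. The log2 ratio was -0.97 (counting interval -1.12 to -0.83), so the value lay past the cutoff while its interval reached across it. Osr1 is also a gene of the lateral plate, and markers of coelomic epithelium and lateral plate did not share 1 direction. Of 9 measured of 19, 2 were lower, 4 were higher, and the median log2 ratio was 0.47. With a pseudocount of 0.5, which brings in the genes listed at 0 in 1 sample, the count was 7 lower and 4 higher of 14 and the median was -0.81. Foxf1, a forkhead gene of the visceral lateral plate, was at 32.4 and 32.5 FPKM, whereas Hand1 and Hand2, basic helix-loop-helix genes of the lateral plate, were higher in Aldh1a2-/- (17.0 and 47.0 FPKM for Hand1, 46.5 and 98.4 FPKM for Hand2). The paralog Osr2 was listed at 0 in both samples.

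Wt1 (chr2:105126529-105173614) encodes a zinc finger protein of nephrogenic mesenchyme, of coelomic epithelium and, later, of podocytes. It was listed at 0 in wild type and was at 11.0 FPKM in Aldh1a2-/-, about 986 fragments, which made it the most abundant member there. A value of 0 can be a failed estimate in a table of this kind. Of 2068 genes between 8 and 16 FPKM in Aldh1a2-/-, 114 (5.51%) were likewise listed at 0 in wild type, and of all 10484 genes above 0.5 FPKM in Aldh1a2-/- 6.14% were. The wild-type value therefore carries no fold change here. As given above, the measured genes of the coelomic epithelium and lateral plate list were more often higher than lower. With a pseudocount of 0.5 more of the list were lower than higher. It held genes with a lower or no value in the mutant sample. Upk3b, a mesothelial uroplakin, was at 1.95 FPKM in wild-type trunk but listed at 0 in Aldh1a2-/-, Tcf21 was at 5.59 and 0.185 FPKM, Upk1b and Msln were listed at 0 in both, and Gata4 was at 6.44 and 8.93 FPKM. The antisense gene Wt1os was listed at 0 in both samples. The podocyte gene Nphs1, which becomes active only in the formed glomerulus, was listed at 0 in both samples.

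Pax2 (chr19:44757394-44837869) had the lowest ratio of the measured members. It was at 4.24 FPKM in wild-type trunk and 0.670 FPKM in Aldh1a2-/- trunk, from about 369 and 60 fragments, a log2 ratio of -2.66 (counting interval -3.09 to -2.27). Of all measured genes, 3.55% had a lower ratio. Pax8 (chr2:24420551-24475599), its partner in nephric specification, was at 2.50 and 1.40 FPKM, from about 180 and 104 fragments. Its log2 ratio of -0.84 lay just inside the cutoff, with a counting interval of -1.20 to -0.48, and 22.1% of measured genes had a lower ratio. The counting intervals of the Pax2 and Pax8 ratios did not overlap. Pax2 was at 1.69 times the level of Pax8 in wild type, whereas in Aldh1a2-/- it was at 0.479 of the Pax8 level. Pax5, the third gene of this subfamily, was listed at 0 in wild type and was at 0.847 FPKM in Aldh1a2-/-.

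Pax2 and Pax8 are also genes of the otic placode and of spinal cord interneurons, so markers of those sites were read beside them. Of 19 otic placode and posterior hindbrain markers, 8 were listed at 0 in both samples, among them the otic genes Oc90, Fbxo2, Dlx5, Hmx2 and Hmx3. Of the 5 that were measured, 2 were lower (Sox9 at 20.3 and 2.36 FPKM, Gbx2 at 28.0 and 7.26 FPKM) and 0 were higher. The list summed to 89.5 FPKM in wild-type trunk and 39.1 FPKM in Aldh1a2-/- trunk. Of 20 early spinal cord and interneuron genes, 8 were listed at 0 in both, including the interneuron genes Lhx5, En1 and Bhlhe22. Among the 6 measured, 3 were lower, 1 was higher and the median log2 ratio was -0.42, and the list summed to 75.2 and 79.3 FPKM. Tubb3, a neuronal tubulin gene listed at 0 in wild type, supplied 39.2 FPKM of the mutant sum, which was 40.1 FPKM without it, a split made after the values had been seen. Olig2, Nkx6-1, Neurog2 and Pou4f1 were at 6.19, 3.08, 1.15 and 1.16 FPKM in wild-type trunk but listed at 0 in Aldh1a2-/-. With a pseudocount of 0.5, 6 of 12 genes were lower and 2 higher, with a median of -1.03. Of all genes under that setting, 30.9% were lower and 24.9% higher. The part of these tissues in the Pax2 and Pax8 values was not tested.

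Lhx1 (chr11:84519379-84525534) encodes a LIM homeodomain protein. It was at 4.91 FPKM in wild type, about 531 fragments, and was listed at 0 in Aldh1a2-/-. Lhx1os, which lies on the other strand with 124 bases between the annotated starts, was at 6.52 FPKM in wild type, about 108 fragments, and was also listed at 0 in Aldh1a2-/-. The annotated spans of the pair do not overlap, so reads within them differ in position. Whether strand was used in the quantification is not stated. On the other side, Aatf, a broadly expressed gene 5.88 kb away, was at 80.0 and 73.5 FPKM. Of 1849 genes between 4 and 8 FPKM in wild type, 272 (14.7%) had a listed value of 0 in Aldh1a2-/-, as did 12.9% of all 11376 genes above 0.5 FPKM in wild type.

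Gata3 (chr2:9857078-9878600) encodes a zinc finger factor that in the nephric duct lies downstream of Pax2 and Pax8. Its value went the other way from theirs. It was at 0.440 FPKM in wild-type trunk (counting interval 0.316 to 0.603 FPKM, about 40 fragments) and at 2.44 FPKM in Aldh1a2-/- trunk (2.13 to 2.78 FPKM, about 228 fragments). The wild-type value is under the floor, although its interval reaches above it. Computed without a floor, the log2 ratio was 2.47 with a counting interval of 1.97 to 2.99. Of 1105 genes above 0 and up to 0.5 FPKM in wild type, 334 (30.2%) were above 0.5 FPKM in Aldh1a2-/-. Ret, the receptor of the duct that Gata3 maintains, was higher as well, at 3.23 and 6.13 FPKM. Its log2 ratio was 0.92 (counting interval 0.77 to 1.08), so the value lay past the cutoff while its interval reached across it. Gfra1, the coreceptor of Ret, was at 0.910 FPKM in wild-type trunk but listed at 0 in Aldh1a2-/-, and Gdnf, their ligand, was at 0.826 and 0.383 FPKM.

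The other Gata genes did not share 1 direction. Gata2, Gata4 and Gata5 lay within the cutoffs, at log2 ratios of 0.22, 0.47 and -0.15. Gata6, a gene of lateral plate and endoderm, was at 7.45 FPKM in wild-type trunk but listed at 0 in Aldh1a2-/-, whereas Gata1, the factor of red blood cells, was listed at 0 in wild type and was at 15.9 FPKM in Aldh1a2-/-. Gata3 is also a gene of trophoblast and of surface ectoderm. The list of extraembryonic ectoderm, trophoblast, amnion and allantois genes did not share 1 direction. Of its 13 genes 5 were measured, with 0 lower, 3 higher (Postn at 5.28 and 42.8 FPKM, Hand1, and the placental gene Peg10 at 271 and 545 FPKM) and a median log2 ratio of 1.01, and the list summed to 3196 and 5295 FPKM. Its trophoblast genes Elf5, Ascl2 and Plac1 were at 2.83, 10.9 and 3.97 FPKM in wild-type trunk but listed at 0 in Aldh1a2-/-, and Eomes and Tpbpa were listed at 0 in both. Most of the sums of this list came from H19 (2600 and 4359 FPKM), Igf2 (284 and 301 FPKM) and Peg10. H19 and Igf2 lay within the cutoffs. In the surface ectoderm and epithelium list, 12 of 15 genes were measured, of which 2 were lower and 3 were higher. Its members Trp63 and Dlx3 were at 8.64 and 7.54 FPKM in wild-type trunk but were listed at 0 in Aldh1a2-/-. The part of these tissues in the Gata3 value was not tested.

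Emx2 (chr19:59458690-59465357) encodes a homeodomain protein and was at 7.04 FPKM in wild-type trunk and 1.75 FPKM in Aldh1a2-/- trunk, from about 577 and 148 fragments. The log2 ratio was -2.01 (counting interval -2.28 to -1.75), and 6.80% of measured genes had a lower ratio. Emx2 is known in the forebrain as well, a tissue that the dissection removed. The forebrain genes Otx2, Rax and Six3 were listed at 0 in both samples. The antisense gene Emx2os was at 0.0550 FPKM in wild-type trunk but listed at 0 in Aldh1a2-/-, and the paralog Emx1 was listed at 0 in both.

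Eya1 (chr1:14168958-14310199) encodes a phosphatase and coactivator that works with homeodomain partners, and in the kidney mesenchyme it lies upstream of Gdnf. It was at 9.34 FPKM in wild-type trunk and 5.64 FPKM in Aldh1a2-/- trunk, from about 1141 and 713 fragments. Its log2 ratio of -0.73 (counting interval -0.86 to -0.59) lay within the cutoffs, and 24.5% of measured genes had a lower ratio. Dach1, the corepressor of this network, was at 6.43 and 0.818 FPKM (-2.98), and Six4 was at 9.51 and 9.43 FPKM. Of 11 genes in the Eya family, Eya1 aside, and in the families of its partners, 5 were measured, 3 of them lower and 0 higher, with a median log2 ratio of -0.92. The paralog Eya3 was at 31.4 and 18.7 FPKM, Eya2 was at 2.67 FPKM in wild-type trunk but listed at 0 in Aldh1a2-/-, and Eya4 was listed at 0 in both. Six2, which marks nephron progenitors only later, was listed at 0 in both.

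**Figure D2:**
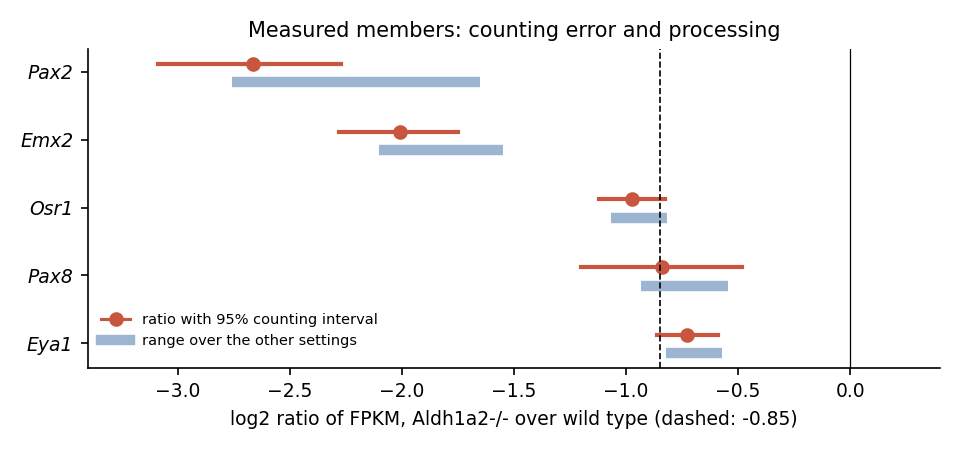
Log2 ratio of FPKM, Aldh1a2-/- over wild type, of the 5 measured members (points) with the 95% counting interval (thin lines) and the range of the ratio over the other processing settings in which it could be computed (thick bars). All ranges lie below 0, which the settings could not change. Those of Pax2 and Emx2 lie wholly below the dashed cutoff of -0.85, and those of Osr1 and Pax8 cross it.

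Among the 5 measured members, Pax2 and Emx2 stood apart from Osr1, Pax8 and Eya1. The upper ends of the Pax2 and Emx2 counting intervals were -2.27 and -1.75, and the lowest end among the other 3 was -1.20, that of Pax8. Just inside and just outside the cutoff lay Pax8 at -0.84 and Osr1 at -0.97. On the TPM scale, on which the values of each sample have the same total and which moved the ratios of all genes up by 0.16, Osr1 was at -0.82 and no longer past the cutoff.

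**Figure D3:**
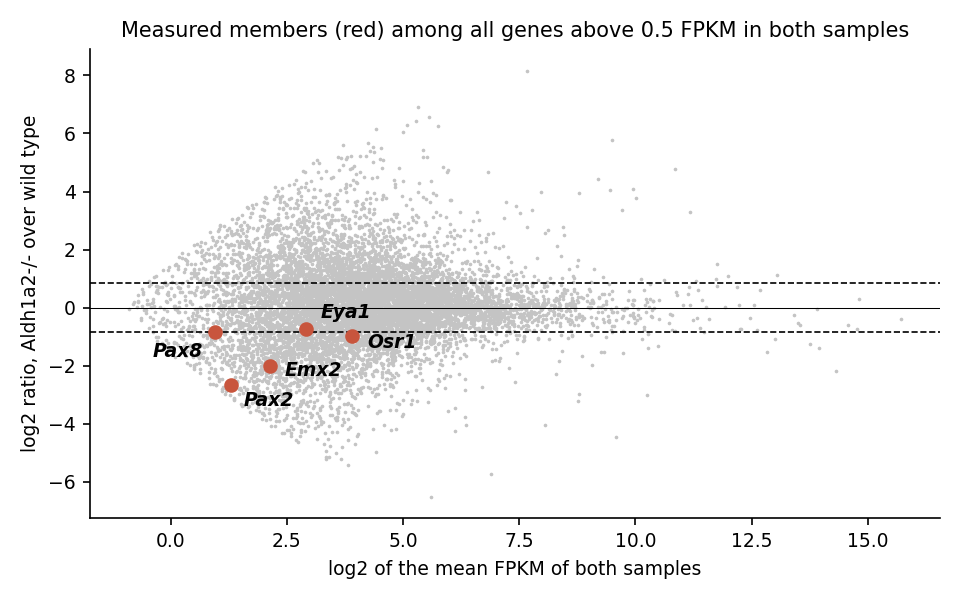
Log2 ratio, Aldh1a2-/- over wild type, against the log2 of the mean FPKM of both samples for 9506 genes above 0.5 FPKM in both (grey) and the 5 measured members (red), with dashed lines at -0.85 and 0.85. All 5 members lie below 0, within the spread of other genes of their level.

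A wider set of kidney regulators held genes of both directions, and their balance depended on the genes listed at 0. Of 23 further transcription factors of nephric and kidney development, 12 were measured, of which 5 were lower and 2 higher, with a median log2 ratio of -0.12. With a pseudocount of 0.5, which takes in genes listed at 0 in 1 sample, 11 of 19 were lower and 3 higher, with a median of -1.07, against 30.9% lower and 24.9% higher of all 12354 genes under that setting. On the TPM scale the median was 0.03. Among the genes that were lower were Foxc2 (27.0 and 1.15 FPKM) and Foxc1 (23.5 and 7.76 FPKM), forkhead factors that border intermediate mesoderm in the somite, and Grhl2 (4.21 and 1.70 FPKM), an epithelial factor of the duct. Tfcp2l1, an epithelial factor of the kidney, was among those that were higher, at 1.86 and 12.6 FPKM. Foxd1, Mecom, Lmx1b and Sim1 were at 10.8, 6.53, 5.37 and 1.37 FPKM in wild-type trunk but were listed at 0 in Aldh1a2-/-, and Hoxa10 was listed at 0 in wild type and was at 2.06 FPKM in Aldh1a2-/-.

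The signals, receptors and adhesion genes of the nephric lineage were likewise mixed, with 24 of 32 measured, 6 lower, 8 higher and a median log2 ratio of 0.08. The largest differences in this list were of Fgf8 and Fgfr2. Fgf8, an FGF ligand that RA is known to repress in the trunk, was at 0.864 and 32.6 FPKM (5.24), and Fgfr2, the FGF receptor of the duct and its mesenchyme, was at 37.4 and 4.49 FPKM (-3.06). Bmp7 and the integrin gene Itga8, both used in kidney mesenchyme, were lower, at 7.47 and 2.84 FPKM and at 4.55 and 1.12 FPKM. Robo2, which limits the field of Gdnf, was lower too, at 9.80 and 4.20 FPKM, whereas Bmp4, the antagonist of budding, was higher, at 7.78 and 20.1 FPKM. Etv5, a target of FGF and Ret signaling, and the epithelial genes Cdh1 and Podxl were higher in Aldh1a2-/-. Wnt4 was at 0.823 and 0.0610 FPKM, and Wnt9b and Wnt11, both made by the duct, were listed at 0 in both samples. Both lists together held 36 measured genes of 55, with 30.6% lower, 27.8% higher and a median of 0.01, near the shares of all genes at the members' level.

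Markers of some other tissues, though not of all, moved with the genotype in these samples. The 13 yolk sac visceral endoderm genes summed to 507 FPKM in wild-type trunk and 6979 FPKM in Aldh1a2-/- trunk, or 0.0599% and 0.919% of the FPKM of all genes, and 11 of the 12 measured were higher. The 11 red blood cell genes summed to 304 and 5884 FPKM, with 6 of 7 measured higher. Gut endoderm genes summed to 75.3 and 254 FPKM, with 6 of 9 measured higher and 0 lower. Endothelium genes summed to 137 and 142 FPKM, and of 11 measured 4 were higher, 1 was lower and 6 lay within the cutoffs. Somite and paraxial mesoderm genes summed to 491 and 98.8 FPKM, and 8 of 9 measured were lower. Tbx6, Ripply1 and Pax1 were listed at 0 in wild type and were at 18.1, 5.82 and 1.67 FPKM in Aldh1a2-/-. The reverse held for 4 genes of the list. This list holds Aldh1a2, the knocked-out gene. Without it, an alternative added after the values had been seen, the sums were 363 and 87.1 FPKM and 7 of 8 measured were lower. Of the genes named above, Foxc1 and Foxc2 are on the somite list and Bmp4 is on the lateral plate list. Among 14 genes of head and heart, the tissues removed by dissection, 6 were listed at 0 in both samples and 3 were measured, all higher in Aldh1a2-/- (Tnnt2, cardiac troponin T, was at 8.82 and 29.8 FPKM). Heart genes without a ratio went both ways. Actc1, cardiac actin, was at 6.13 and 0.0531 FPKM, whereas Tnni1 was at 0.436 and 13.4 FPKM. Myl7 was listed at 0 in wild type and was at 2.36 FPKM in Aldh1a2-/-. The part of these tissues in the members' values was not tested.

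**Figure D4:**
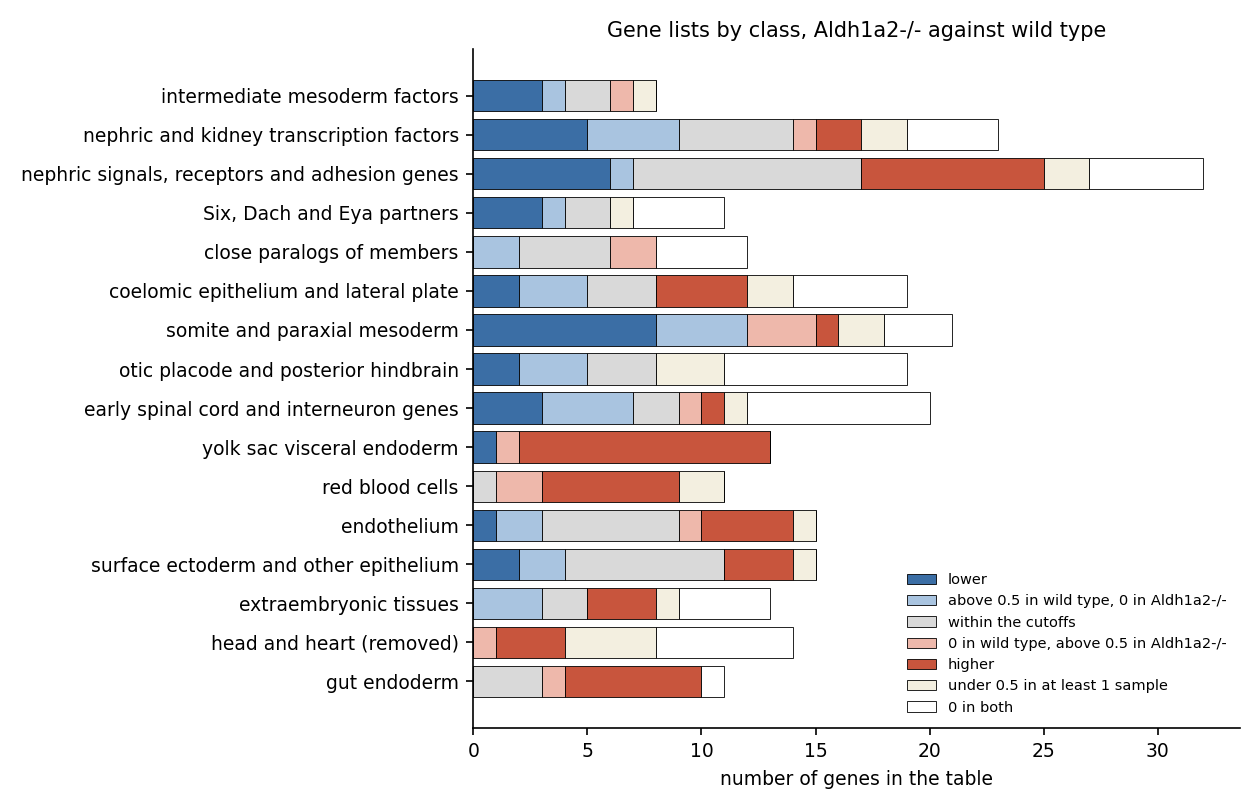
Number of genes of each list that were lower, within the cutoffs or higher in Aldh1a2-/- among those above 0.5 FPKM in both samples, with genes listed at 0 in 1 sample, under the floor or listed at 0 in both shown as separate colors. The bar of the 8 members holds 3 lower and 0 higher genes, the 2 nephric lists hold both colors, and the yolk sac and red blood cell bars are mostly higher.

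Over the 2 samples, the genes of the lists nearest to each measured member in log2(FPKM + 0.5) were looked up as a description, with the distance in log2 units. Nearest to Pax2 were Itga8 (0.48), Dach1 (0.57) and Tfap2c (0.62). Nearest to Pax8 were Six5 (0.22), Spry1 (0.31) and Grhl2 (0.68), and nearest to Emx2 were Dll1 (0.38), Isl1 (0.49) and Etv2 (0.50). Osr1 lay nearest to Sox2 (0.10), Wnt6 (0.37) and Foxc1 (0.43), and Prrx1 (0.25) and Robo2 (0.39) were among those nearest to Eya1. With only 2 values per gene such likeness says no more than that the pairs of levels were close.

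RA receptors bind direct repeats of AGGTCA, so these letters were searched on both strands in the 250 bases upstream of RefSeq starts, of which there were 7 for 5 members (Pax2, Pax8, Lhx1, Gata3 and Emx2). AGGTCA was in 0 of these 7 windows and in 14.0% of all 32851 windows. Repeats of it spaced by 1, 2 or 5 bases were in 0 member windows and in 0.0335%, 0.00913% and 0.00913% of all windows, while repeats in which the first base of each hexamer could also be G and the third also T were in 0 and in 0.164%, 0.174% and 0.0883%. The letters AGATAA, known to be bound by Gata proteins, were in 0 and in 9.99%. After the sequences had been seen, GGGCGG was searched as well and was in 5 of the 7 windows, those of Emx2, Gata3 and Pax8 and 2 of the 3 Pax2 windows, against 32.7% of all. CCAAT was in the windows of Emx2, Lhx1 and Pax8 and in 33.8% of all, and TATAAA was in 0 and in 12.4%. The GC content of the member windows ran from 52.8% to 72.8%, against a median of 52.4% over all windows. The windows are short and hold no distal enhancers, and a match of letters is not a bound site.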

How the data were processed

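RNA-seq with single reads of 75 bases was done on 1 wild-type and 1 Aldh1a2-/- sample of mouse trunk at E8.5. The authors deposited 1 table of FPKM values per gene on mm10. STAR, Cufflinks and Cuffdiff are named, without versions, in the submitters' processing notes, whereas the paper's methods name TopHat and edgeR. The methods give a low-input total RNA kit. The labels name that kit and also a poly(A) selection kit with another library kit, and which of these made the libraries is not clear. The table also holds the authors' fold changes, p-values and q-values, which were not used, and 1 of its lines was empty in the copy used here.

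For genes with more than 0.5 FPKM in each sample, FPKM in Aldh1a2-/- was divided by that in wild type, with no pseudocount, and put on a log2 scale, with cutoffs of -0.85 and 0.85, as in the study. Genes listed at 0 in 1 sample were kept apart and given no ratio. There was no test, because there was 1 sample per genotype. The members and gene lists were chosen with earlier results of these data known. From each list, up to 8 genes with the largest absolute ratio, and genes above 0.5 FPKM in 1 sample and listed at 0 in the other, could be named. Six4, Foxf1 and the other genes named outside this rule, all of them list members or genomic neighbors, were added after their values had been seen.

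Depth was estimated from the lowest step of FPKM times transcript length in genes with 1 GENCODE M21 transcript longer than 800 bases (33 genes in wild type and 29 in Aldh1a2-/-). Fragments per member follow from that depth and the length of a basic transcript, without correction for effective length. Intervals of levels are exact Poisson and those of ratios exact binomial, at 95%. Duplicate reads could not be recognized, so the intervals cover counting error only. The members' coordinates are the table's, counted from 1.

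Upstream windows are from RefSeq on GRCm38.p6. Windows for Osr1, Wt1 and Eya1 were not used here. The stretches for Emx2 and Pax2 are not printed, because they overlap an exon of the gene itself or lie away from the start in the table.

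Alternatives were floors of 0.1, 1 and 5 FPKM, no floor, pseudocounts of 0.5 and 1, the TPM scale, median centring, upper quartile scaling, cutoffs at -1 and 1, and genes with status OK only. Some genes of the lists are counted but not reported here by name. The steps were tested on simulated data. Python 3.11.15, numpy 2.4.6, pandas 2.3.3, scipy 1.17.1 and matplotlib 3.10.9 were used.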

Additional observations from a re-analysis of the deposited data

How the results depend on the processing

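No paired analysis was possible because there was 1 sample per genotype, and for the same reason no replicate could be left out. All ratios of the 5 measured members stayed below 0 in each of the 11 alternatives in which they could be computed, from -2.76 to -1.65 for Pax2, -2.10 to -1.55 for Emx2, -1.07 to -0.82 for Osr1, -0.93 to -0.55 for Pax8 and -0.82 to -0.57 for Eya1. These settings did not put the sign of the 5 ratios to a test. Floors, cutoffs and the status filter leave a ratio unchanged, and a pseudocount keeps its sign. The largest upward shift, that of the TPM scale, was 0.16, too small to reach 0. With a floor of 5 FPKM, 2 members were measured and 1 was past the cutoffs and lower, beside 14.4% lower and 17.7% higher of all genes. With a floor of 0.1 FPKM or no floor, 1 member (Gata3) was higher, beside 24.8% and 25.2% of all genes. With a pseudocount of 0.5 or 1, which gives a ratio to genes listed at 0, 6 members were past the cutoffs, of which 2 were higher. Of all genes, 30.9% were lower and 24.9% higher with a pseudocount of 0.5, and 28.2% and 23.2% with 1. Under these pseudocounts Lhx1 was at -3.44 and -2.56, Wt1 at 4.52 and 3.58 and Gata3 at 1.65 and 1.26, values that depend on the pseudocount. Osr1 fell inside the cutoffs when TPM was used (-0.82) or when cutoffs were at -1 and 1, and Pax8 was past them with median centring (-0.86) and upper quartile scaling (-0.93). Over all genes, the TPM scale gave 1805 lower and 2610 higher against 2087 and 2243, and a pseudocount of 0.5 gave 3812 and 3081. Of 495 list counts and medians compared, 72 moved by over 1.5 times or across a cutoff. Of 165 list medians, 11 changed sign, in 5 of 15 lists, all with a median within the cutoffs. Among them were coelomic epithelium and lateral plate (0.47 to -0.81 and -0.73 with pseudocounts of 0.5 and 1), early spinal cord (-0.42 to 0.02 with a floor of 0.1 FPKM or none) and the nephric transcription factors (-0.12 to 0.03 on the TPM scale), which with pseudocounts of 0.5 and 1 had medians of -1.07 and -0.86 and 11 and 10 of 19 genes lower. With those pseudocounts the early spinal cord list had medians of -1.03 and -0.96. Depth limits Gata3 in wild type and Pax2 in Aldh1a2-/-, at about 40 and 60 fragments.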

Other observations

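The nearest gene on each side of every member that was above 0.5 FPKM in either sample was read from the table. Of these 16 neighbors, 10 were measured in both samples, with 2 lower, 1 higher and a median log2 ratio of -0.04. Over all measured genes 22.0% were lower and 23.6% higher. Eif3m, a translation initiation factor gene 110 kb from Wt1, was at 86.3 FPKM in wild-type trunk and 40.3 FPKM in Aldh1a2-/- trunk (-1.10), and Pdzd8, 113 kb from Emx2, was at 18.3 and 9.46 FPKM (-0.95). Lactb2, 508 kb from Eya1, was at 5.92 and 15.9 FPKM (1.43). Beside Pax2, Hif1an was at 21.9 and 22.7 FPKM and Fam178a at 27.3 and 39.4 FPKM, both within the cutoffs.

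A further 5 neighbors were listed at 0 in Aldh1a2-/-. They were Lhx1os, Psd4 beside Pax8 (0.983 FPKM in wild type), Ttc32 and Rdh14 on either side of Osr1 (9.84 and 2.71 FPKM), and Kcnb2 beside Eya1 (1.92 FPKM). Of all 11376 genes above 0.5 FPKM in wild type, 12.9% were likewise listed at 0 in Aldh1a2-/-. The remaining neighbor, Rab11fip2 beside Emx2, was at 8.20 FPKM in wild-type trunk and 0.384 FPKM in Aldh1a2-/- trunk, under the floor there.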
